A study of Homo sapiens with 12 samples.

Results

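NGFR, which encodes the low-affinity neurotrophin receptor p75NTR, was examined together with its ligand gene BDNF, the Trk receptor genes NTRK2 and NTRK3 and the co-receptor gene SORT1 in 12 RNA-seq libraries of triple-negative breast cancer cells. These 5 genes were matched by symbol among 32152 listed genes, of which 17665 are protein coding. The set was chosen by the measured fall of NGFR in MDA-MB-231 cells, in libraries labelled ERK5-ko as well as in those labelled MEK5DD, each relative to the parental line. Every value of the set in those 2 contrasts is therefore a description with no p-value, and calls counted there are printed beside the share of all genes only, with nothing read from them.

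Neurotrophins are secreted growth factors that are made as precursors and cleaved to mature dimers. Mature BDNF and neurotrophin-3 act mainly through the tyrosine kinases TrkB and TrkC, which are encoded by NTRK2 and NTRK3, whereas p75NTR binds all neurotrophins and, paired with sortilin, their precursors. In the breast, p75NTR is known as a surface marker of myoepithelial and basal cells, and in the nervous system of neural crest derivatives. BDNF transcription responds to calcium, cAMP and growth factor signaling, and the MEK5/ERK5 cascade is a kinase route used by Trk receptors.

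The libraries came from 2 established mesenchymal-like lines, MDA-MB-231 and Hs-578T, with 2 libraries for each of 3 labels per line. Parental cells carried no engineered change. ERK5-ko cells were made with CRISPR/Cas9 and guides against MAPK7, the gene of ERK5, and the MDA-MB-231 knockout line grew from 1 surviving clone. MEK5DD is a constitutively active MEK5, and how the lines expressing it were derived is not given in the sources used here. Passage labels ran from 29 to 30 in MDA-MB-231 parental cells and from 83 to 84 in Hs-578T parental cells, against 7 to 11 in all engineered cells, so that label and passage cannot be told apart.

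Library totals lay between 20248162 and 27791195 reads. MAPK7 RNA was not lower in the ERK5-ko libraries, at 16.3 and 17.8 RPKM against 13.3 and 14.3 in parental MDA-MB-231 and at 17.8 and 18.1 RPKM against 14.0 and 16.0 in parental Hs-578T, and a gene-level RNA value does not show whether the coding frame was cut. The authors reported strongly reduced ERK5 protein in the knockout cells of both lines by Western blot. In these RNA data, directions below rest on the library labels. MAP2K5, the gene of MEK5, stood at 188 and 184 RPKM in MDA-MB-231 MEK5DD libraries against 12.9 and 13.6 in the parental line, and at 21.3 and 23.8 against 14.6 and 16.9 in Hs-578T. RPKM is reads per kilobase of gene model, scaled to library size.

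NGFR (ENSG00000064300.8) lies on chromosome 17, 49495293 to 49515017 of GRCh38, plus strand. BDNF (ENSG00000176697.18) lies on chromosome 11, 27654893 to 27722058, minus strand, NTRK2 (ENSG00000148053.15) on chromosome 9, 84668551 to 85027070, plus strand, NTRK3 (ENSG00000140538.16) on chromosome 15, 87859751 to 88256768, minus strand, and SORT1 (ENSG00000134243.11) on chromosome 1, 109309568 to 109397951, minus strand. RefSeq entries for the 250 bases ahead of annotated starts (GRCh38.p14) matched 4 of the 5 genes with 12 starts, and NGFR had none among them. Shown here are 1 such stretch of BDNF, the ligand gene that differed in both lines, and that of NTRK3, the Trk gene with the highest level in Hs-578T. Capitals mark the core of a cAMP response element (TGACG or its reverse complement CGTCA) in BDNF and GC boxes (GGGCGG or CCGCCC) in NTRK3, and each of the stretches shown held matches to only that motif. The cAMP element core was in 1 of the 5 BDNF starts, and the other 4 held none.
BDNF, chr11:27701622-27701871, minus strand: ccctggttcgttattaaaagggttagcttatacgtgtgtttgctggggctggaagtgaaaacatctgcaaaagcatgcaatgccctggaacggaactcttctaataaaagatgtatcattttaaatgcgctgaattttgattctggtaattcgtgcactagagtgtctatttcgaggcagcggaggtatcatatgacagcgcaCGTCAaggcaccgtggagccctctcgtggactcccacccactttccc
NTRK3, chr15:88256740-88256989, minus strand: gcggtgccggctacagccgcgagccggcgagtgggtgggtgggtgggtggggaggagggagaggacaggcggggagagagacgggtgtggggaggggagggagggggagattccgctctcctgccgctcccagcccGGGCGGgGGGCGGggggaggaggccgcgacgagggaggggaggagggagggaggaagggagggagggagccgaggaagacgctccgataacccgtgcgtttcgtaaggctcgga
The cAMP element core occurred on either strand in 21.2% and the GC box in 42.6% of 35116 stretches of this length over all genes, and the AP-1 motif (TGAGTCA or TGACTCA), found in 4.20% of them, in none of the 12 starts of these genes. These matches describe letters and do not show binding.

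**Figure D1:**
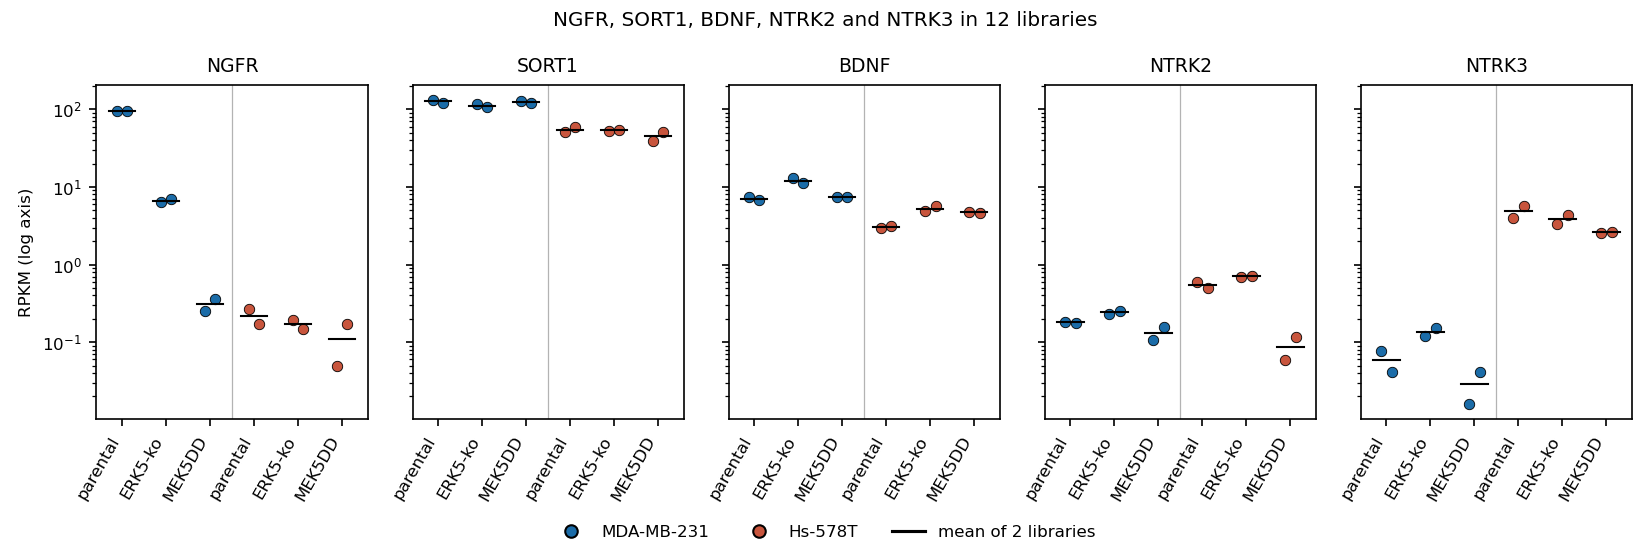
RPKM of NGFR, SORT1, BDNF, NTRK2 and NTRK3 on a log axis in each of the 12 libraries, by line and label, with a bar at the mean of each pair. NGFR runs from 95.6 RPKM in parental MDA-MB-231 down to 0.0498 in Hs-578T MEK5DD, while SORT1 stays between 39.1 and 133 RPKM in every library.

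NGFR RNA was abundant in parental MDA-MB-231 and close to absent in the MEK5DD cells of the same line. It measured 95.6 and 95.3 RPKM (4683 and 5248 reads) in the parental libraries, above 91.6% of protein-coding genes. The ERK5-ko libraries held 6.42 and 6.91 RPKM (287 and 342 reads), and the MEK5DD libraries 0.252 and 0.364 RPKM (12 and 20 reads). The 3 pairs of libraries did not overlap, and replicates lay close together in each. The ratio of means was 14.3-fold lower in ERK5-ko than in parental cells (95% counting interval 13.2 to 15.5) and 310.1-fold lower in MEK5DD than in parental cells (217 to 448). Intervals cover counting error only.

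On the log2(RPKM + 0.5) scale, which understates changes of genes with low values, the NGFR difference from parental cells was -3.74 in ERK5-ko and -6.90 in MEK5DD. Among the 13737 protein-coding genes in the fit, only 1 gene had a lower value than NGFR in the ERK5-ko comparison, and none had in the MEK5DD comparison. As these contrasts chose the set, the ranks describe the choice and carry no test. Calls needed an adjusted p under 0.05 together with a fold above 1.5 for higher or below 0.5 for lower. In ERK5-ko minus parental MDA-MB-231, where 2.8% of genes were called higher and 1.07% lower, the count over the 5 genes was 1 in each direction, with NGFR lower by choice. In MEK5DD minus parental MDA-MB-231, with 7.64% called higher and 6.31% lower, it was 0 higher and 1 lower, NGFR again by choice. Both contrasts share their controls. NGFR in ERK5-ko exceeded that in MEK5DD 21.7-fold by the ratio of means (counting interval 15.0 to 31.6). In bulk RNA, fewer cells with NGFR and less NGFR RNA per cell cannot be told apart.

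The genes beside NGFR on chromosome 17 were described in the same contrasts. Of the 9 tested genes within 500 kb, 0 were called in ERK5-ko minus parental MDA-MB-231, with log2 differences from -0.47 to 0.07. Over all genes, 2.8% were called higher and 1.07% lower there, so that 0 calls among 9 genes say little. In MEK5DD minus parental, the differences lay between -0.69 and 0.65. Only FAM117A was called there, from 5.32 to 8.64 RPKM in the mean, in the direction opposite to NGFR, beside 7.64% of all genes called higher and 6.31% lower. The nearest, NXPH3, 60.8 kb away, had 0.104 RPKM in parental MDA-MB-231 and 4.32 RPKM in parental Hs-578T, where NGFR was the low gene. PHB, a mitochondrial scaffold gene at 80.4 kb, measured 202 RPKM in parental, 187 in ERK5-ko and 185 in MEK5DD MDA-MB-231, and SPOP, a ubiquitin ligase adaptor gene at 83.9 kb, measured 49.5, 48.4 and 58.7 RPKM. Of the remaining neighbours, KAT7, SLC35B1 and ZNF652 were not called in any of the 6 comparisons within a line. PHOSPHO1 was called higher in Hs-578T ERK5-ko cells against parental and against MEK5DD cells, where 9.35% and 15.3% of all genes were called higher. In ERK5-ko minus MEK5DD MDA-MB-231, DLX4 was called higher and FAM117A lower, beside 17.5% of all genes called higher and 6.12% lower. Such calls among 9 genes say little. NGFR also shares 9361 bases with an antisense gene and 2508 bases with another gene on the opposite strand in GENCODE 29, and the strand setting of the counting is not given in the sources used here.

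**Figure D2:**
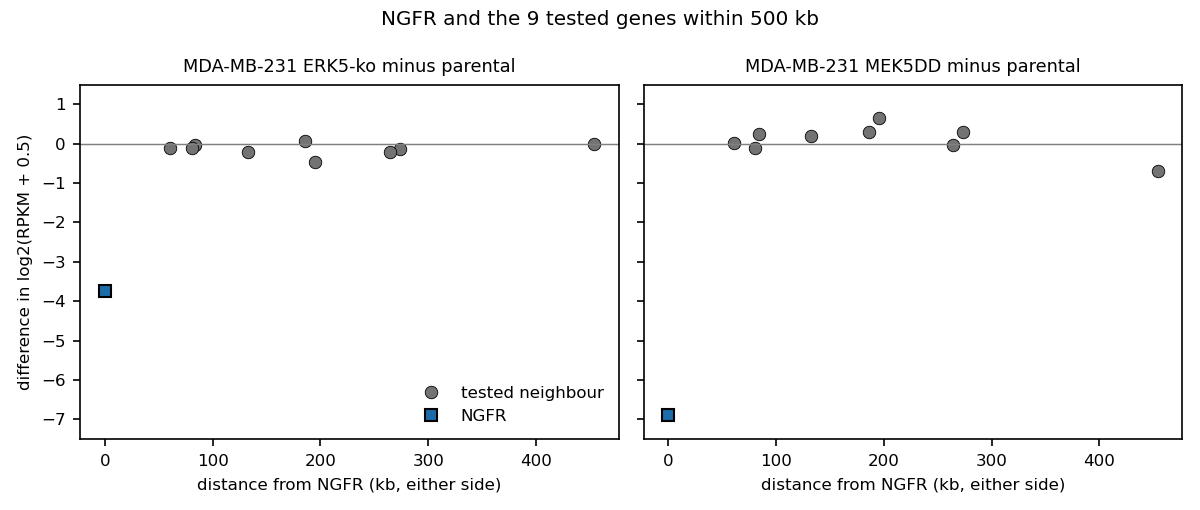
Difference in log2(RPKM + 0.5) of NGFR (square) and of the 9 tested genes within 500 kb (circles) against their distance from NGFR, for ERK5-ko and MEK5DD minus parental MDA-MB-231. The neighbours lie between -0.69 and 0.65, and NGFR at -3.74 and -6.90.

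In Hs-578T, NGFR was near the lower limit of detection in every library. The parental libraries held 0.265 and 0.170 RPKM (12 and 7 reads), the ERK5-ko libraries 0.192 and 0.146 RPKM (10 and 7 reads) and the MEK5DD libraries 0.0498 and 0.172 RPKM (2 and 7 reads). The 3 groups overlapped, and they followed MDA-MB-231 MEK5DD in the order of levels without a gap beyond the spread, since its lower library (0.252) lay under the higher parental Hs-578T library. The log2 difference was -0.10 (95% interval -0.38 to 0.19, adjusted p = 0.575, limma) for ERK5-ko minus parental and -0.24 (-0.52 to 0.05, adjusted p = 0.218) for MEK5DD minus parental. ERK5-ko minus MEK5DD gave 0.14 (-0.15 to 0.42, adjusted p = 0.403). All these libraries lay below the 0.5 RPKM added on this scale, so that differences and intervals are compressed and do not show that NGFR was unchanged. Limma voom on recovered reads gave -0.34 (95% interval -1.35 to 0.66), -1.07 (-2.19 to 0.05) and 0.73 (-0.40 to 1.86) in the same order. NGFR entered the fit only because 4 of the 12 libraries, all parental or ERK5-ko MDA-MB-231, reached the filter of 0.5 RPKM.

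SORT1 encodes sortilin, a sorting receptor that carries pro-neurotrophins and pairs with p75NTR. It was the most abundant of the 5 genes, at 133 and 122 RPKM in parental, 117 and 106 in ERK5-ko and 126 and 121 in MEK5DD MDA-MB-231. The ERK5-ko libraries lay below both other groups, and the difference from MEK5DD did not pass the test (log2 difference -0.16, 95% interval -0.43 to 0.11, adjusted p = 0.300, limma). Set against NGFR per length of gene model, SORT1 RNA was 1.34 times as high in parental MDA-MB-231, 16.7 times in ERK5-ko and 402 times in MEK5DD cells. In Hs-578T, SORT1 measured 50.5 and 58.8 RPKM in parental, 52.3 and 54.3 in ERK5-ko and 39.1 and 50.4 in MEK5DD cells. The ERK5-ko difference from parental was -0.03 (-0.30 to 0.24, adjusted p = 0.864) and the MEK5DD difference -0.29 (-0.56 to -0.02, adjusted p = 0.110). ERK5-ko minus MEK5DD gave 0.26 (adjusted p = 0.0971). With a replicate block in the limma fit, MEK5DD minus parental and ERK5-ko minus MEK5DD passed (adjusted p = 0.0231 and 0.0209). Without MEK5DD replicate 2 both passed, at -0.47 (adjusted p = 0.00890) and 0.44 (adjusted p = 0.00613). SORT1 overlaps no other gene in GENCODE 29.

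BDNF, the TrkB ligand, was higher in ERK5-ko than in parental cells of both lines. In MDA-MB-231 it measured 7.41 and 6.75 RPKM in parental, 12.9 and 11.2 in ERK5-ko and 7.42 and 7.48 in MEK5DD libraries. Both ERK5-ko libraries lay above all others of the line. The ratio of means of ERK5-ko to parental was 1.71 (counting interval 1.60 to 1.82), given as a description. Against MEK5DD, BDNF was higher in ERK5-ko by 0.66 on the log2 scale (limma, adjusted p = 0.000408, standard error 0.113). BDNF was the 1 gene of the set besides NGFR called higher there, with 17.5% of all genes called higher and 6.12% lower.

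In Hs-578T, BDNF measured 2.96 and 3.17 RPKM in parental, 4.86 and 5.61 in ERK5-ko and 4.81 and 4.67 in MEK5DD libraries. All 4 engineered libraries lay above the parental pair. BDNF rose in ERK5-ko by 0.68 on the log2 scale (standard error 0.113, adjusted p = 0.000668, limma), a fold of 1.61, as 1 of 5 genes called higher and 0 called lower, against 9.35% and 3.27% of all genes. It rose in MEK5DD by 0.56 (adjusted p = 0.00495), a fold of 1.47 that missed the fold threshold, so that 0 of the 5 genes were called in MEK5DD minus parental Hs-578T, where 2.9% of genes were called higher and 1.49% lower. In a fit of the Hs-578T libraries alone, the adjusted p of the MEK5DD difference was 0.0628. ERK5-ko and MEK5DD differed by 0.13 (95% interval -0.12 to 0.37, adjusted p = 0.370).

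BDNF shares 43282 bases with the antisense gene BDNF-AS, whose transcripts run opposite to it. BDNF-AS measured 1.29 and 1.23 RPKM in parental, 0.561 and 0.416 in ERK5-ko and 1.49 and 1.40 in MEK5DD Hs-578T libraries. In a fit of all gene types, chosen after seeing the data, it fell in Hs-578T ERK5-ko relative to parental by 0.84 on the log2 scale (adjusted p = 0.0021), the direction opposite to BDNF. In MDA-MB-231 it lay between 0.363 and 0.721 RPKM in the 6 libraries, and parental and ERK5-ko libraries overlapped. Without the strand setting of the counting, reads of this pair in their shared stretch cannot be assigned with certainty.

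NTRK2, the TrkB gene, was low throughout and lowest in Hs-578T MEK5DD. It measured 0.589 and 0.498 RPKM in parental (90 and 69 reads), 0.700 and 0.722 in ERK5-ko (123 and 117 reads) and 0.0590 and 0.117 in MEK5DD Hs-578T (8 and 16 reads). Both MEK5DD libraries lay below every other Hs-578T library. The ratio of means was 6.19-fold lower in MEK5DD than in parental cells (counting interval 4.02 to 9.96). NTRK2 fell by 0.83 on the log2(RPKM + 0.5) scale (standard error 0.10), which did not reach the fold threshold on that scale. As NTRK2 met the filter of 0.5 RPKM in only 3 of the 12 libraries, all parental or ERK5-ko Hs-578T, it entered the fit through groups in which it was high. The p-value of the filtered fit is therefore not given. In a limma fit with no filter on low values, the same difference had an adjusted p of 0.000116. On recovered whole reads of the filtered genes, limma voom gave -2.65.

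ERK5-ko exceeded MEK5DD Hs-578T cells in NTRK2 8.10-fold by the ratio of means (counting interval 5.30 to 12.9), or 1.04 on the log2 scale. With no filter on low values, the adjusted p of this difference was 6.44e-06 (limma). Over the 5 genes this comparison gave 1 call higher, NTRK2 in the filtered fit, and 0 lower, beside 15.3% and 3.96% of all genes. The difference of ERK5-ko from parental Hs-578T was 0.22 (95% interval -0.0031 to 0.44 in the filtered fit). Its adjusted p was 0.109 in the filtered limma fit and 0.0352 in that with no filter, so that passing depended on the filter. In MDA-MB-231, NTRK2 lay between 0.106 and 0.251 RPKM, with 17 to 42 reads per library, and ERK5-ko minus MEK5DD gave 0.23 (0.01 to 0.45). There too passing depended on the filter, with an adjusted p of 0.0674 in the filtered limma fit and of 0.0179 with no filter. Both Trk genes encode truncated as well as kinase-bearing receptors, and a value per gene does not separate them.

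NTRK3, the TrkC gene, was high in Hs-578T only. Its parental libraries measured 4.01 and 5.65 RPKM, ERK5-ko libraries 3.32 and 4.31 and MEK5DD libraries 2.58 and 2.64. Parental and ERK5-ko libraries overlapped, and both MEK5DD libraries lay below them. NTRK3 fell in MEK5DD relative to parental by 0.76 on the log2 scale (standard error 0.152, adjusted p = 0.00470, limma), a fold of 0.590 that was short of the call. In a fit of the Hs-578T libraries alone, the adjusted p was 0.0797. The ERK5-ko difference from parental was -0.30 (-0.63 to 0.04, adjusted p = 0.144), and without parental replicate 1 it was -0.52 with an adjusted p of 0.0230. ERK5-ko minus MEK5DD was 0.46 (adjusted p = 0.0251), and leaving out ERK5-ko replicate 2, MEK5DD replicate 1 or MEK5DD replicate 2 moved the adjusted p to 0.209, 0.0808 and 0.0529. In MDA-MB-231, NTRK3 held 1 to 10 reads per library, with ERK5-ko at 0.119 and 0.154 RPKM and the other 4 libraries at or below 0.0776 RPKM. The MEK5DD pair (1 and 3 reads) was at the floor of 3 reads, and ERK5-ko minus MEK5DD was 0.27 (-0.07 to 0.60, adjusted p = 0.159). Over the 5 genes, the median log2 difference in Hs-578T was -0.03 for ERK5-ko minus parental, -0.29 for MEK5DD minus parental and 0.26 for ERK5-ko minus MEK5DD, beside 0.01, -0.08 and 0.09 over all genes tested.

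**Figure D3:**
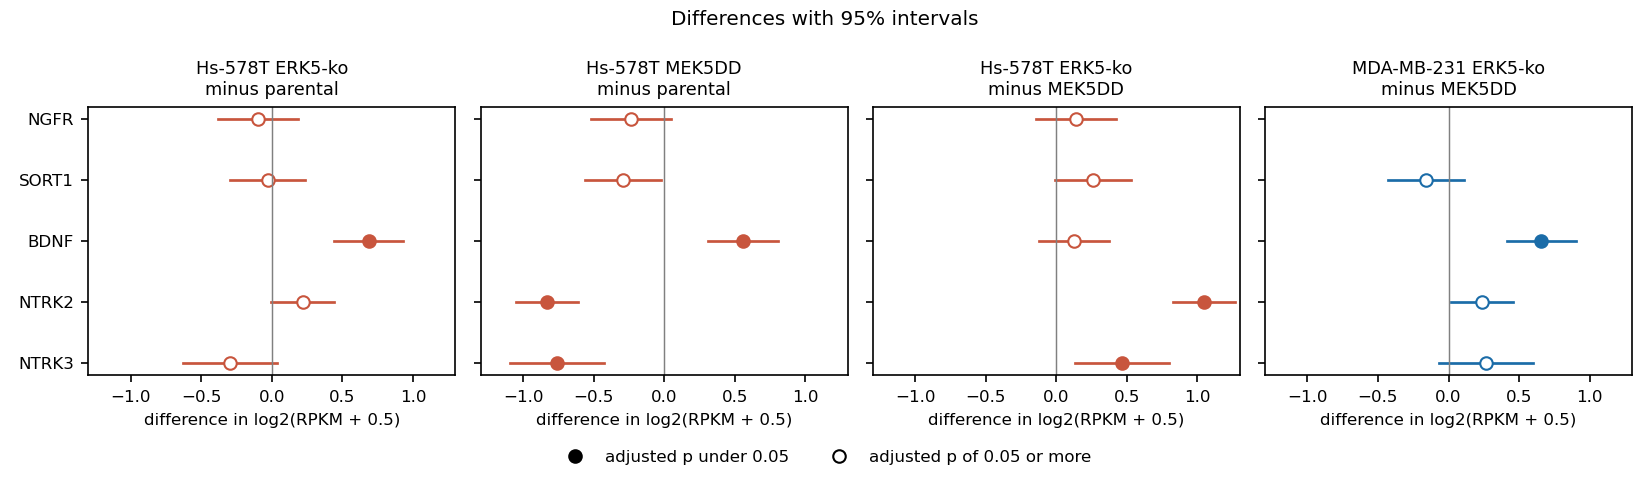
Differences in log2(RPKM + 0.5) with 95% intervals for the 3 comparisons within Hs-578T and for ERK5-ko minus MEK5DD in MDA-MB-231, where NGFR is left out because its level chose the set. Filled points have an adjusted p under 0.05, namely BDNF, NTRK2 and NTRK3 in 2 Hs-578T comparisons each and BDNF in MDA-MB-231. NTRK2 entered this fit through parental and ERK5-ko Hs-578T libraries, where it was high, so that its filled points are not read as tests.

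The parental lines carried different parts of the system. Parental MDA-MB-231 had 438 times the NGFR RNA of parental Hs-578T by the ratio of means (counting interval 278 to 721), a description since the parental MDA-MB-231 level chose the set. SORT1 was higher in MDA-MB-231 by 1.22 on the log2 scale (standard error 0.122, adjusted p = 2.44e-06, limma) and BDNF by 1.09 (adjusted p = 3.14e-06). NTRK3 was 81.2-fold lower by the ratio of means (counting interval 41.3 to 191), at 5 and 3 reads in MDA-MB-231. It passed the filter through its 6 Hs-578T libraries alone, so that a difference between the lines was built in and no p-value is given. NTRK2 was lower by 0.62 (adjusted p = 3.05e-05 in the limma fit with no filter). Of the 5 genes, 3 were called higher and 1 lower, NGFR and NTRK3 among them, where 34.1% and 15.4% of all genes were.

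Other ligand genes were measured in the same libraries. NTF3, which encodes the TrkC ligand neurotrophin-3, was also mainly found in Hs-578T, at 4.67 and 2.79 RPKM in parental, 3.78 and 3.93 in ERK5-ko and 7.18 and 5.21 in MEK5DD cells. It rose in Hs-578T MEK5DD relative to parental by 0.68 (adjusted p = 0.0259, limma), and limma voom gave 0.74 with an adjusted p of 0.0514. NTRK3, its receptor gene, fell in the same comparison, though not past the test in the limma fit of Hs-578T libraries alone (adjusted p = 0.0797). In MDA-MB-231, NTF3 held at most 6 reads per library. NTF4, a TrkB ligand gene, measured 0.839 and 0.822 RPKM in parental, 0.649 and 0.703 in ERK5-ko and 1.58 and 1.04 in MEK5DD Hs-578T, with an adjusted p of 0.0575 for MEK5DD minus parental and of 0.00548 for ERK5-ko minus MEK5DD, in which it was lower by 0.60.

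Among the sortilin relatives, SORL1 and SORCS2 were low in MEK5DD MDA-MB-231. SORL1, an endosomal sorting receptor gene, measured 22.0 and 21.6 RPKM in parental, 28.6 and 25.1 in ERK5-ko and 6.23 and 5.95 in MEK5DD MDA-MB-231, and 0.415 to 0.872 RPKM in Hs-578T. SORCS2, whose product binds p75NTR and proBDNF, measured 33.2 and 32.1, 47.3 and 42.2 and then 1.28 and 1.22 RPKM in the same order. For both genes the MEK5DD libraries lay far below the parental pair and the ERK5-ko libraries above it, where those of NGFR lay below it. ERK5-ko exceeded MEK5DD by 4.69 (adjusted p = 2.10e-09, limma) for SORCS2 and by 2.05 (adjusted p = 2.95e-07) for SORL1.

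In Hs-578T, SORCS2 fell in ERK5-ko relative to parental, with a log2 difference of -1.12 (adjusted p = 0.000460), with 14.8 and 21.5 RPKM in parental and 9.01 and 6.95 in ERK5-ko libraries. SORCS1 measured 0.0418 and 0.123 RPKM in parental (3 and 8 reads), 1.53 and 1.64 in ERK5-ko and 0.0157 and 0.0310 in MEK5DD libraries. It reached the filter in the ERK5-ko pair alone, so that it had to differ and no p-value is given, and it was listed at 0 in all 6 MDA-MB-231 libraries. SORCS3 held at most 4 reads in any library.

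**Figure D4:**
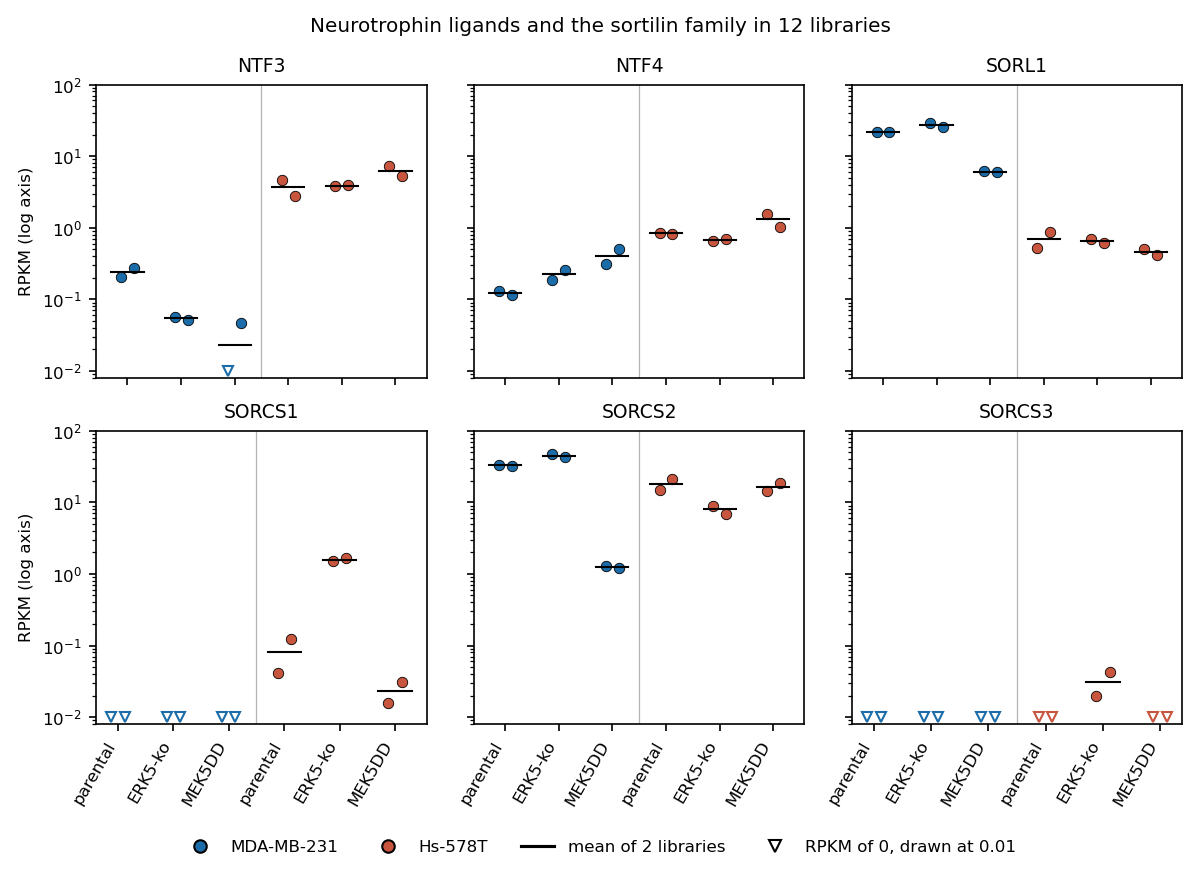
RPKM on a log axis of NTF3, NTF4, SORL1, SORCS1, SORCS2 and SORCS3 in each of the 12 libraries, with a bar at the mean of each pair and triangles for values of 0. SORCS2 drops to 1.28 and 1.22 RPKM in MDA-MB-231 MEK5DD, SORCS1 reaches 1.53 and 1.64 RPKM only in Hs-578T ERK5-ko, and NTF3 reaches 2.79 RPKM or more only in Hs-578T.

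The wider neurotrophin pathway was described with 66 further genes grouped by role, of which 65 were listed and 57 passed the filter. In Hs-578T ERK5-ko minus parental, 8 were called higher and 2 lower, beside 9.35% and 3.27% of all genes, and the median log2 difference of the list was -0.03 against 0.01 over all genes tested. The 8 include SORCS1, whose difference was fixed by the filter. NDN (necdin, a p75NTR-binding protein) rose from 2.58 and 2.23 to 10.4 and 11.7 RPKM, by 1.99 on the log2 scale (adjusted p = 3.99e-07, limma). MAGEH1, a relative of necdin, rose by 1.37 and SHC4, a Trk adaptor gene, by 0.87 (adjusted p = 4.41e-06 and 0.00155). The 12 tested p75NTR adaptors and effectors gave 2 higher and 0 lower, the 17 Trk adaptors and effectors 3 higher and 1 lower, and the 5 pro-neurotrophin processing genes 2 higher and 0 lower. These role counts stand beside 9.35% of all genes called higher and 3.27% lower. Of the 8 genes of p75NTR shedding and gamma-secretase, 0 reached a fold threshold. By adjusted p alone 6 were lower and 1 higher (median -0.35), beside 19.7% of all genes lower and 19.7% higher.

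In Hs-578T MEK5DD minus parental, 2 of the 57 genes were called higher and 0 lower, beside 2.9% and 1.49% of all genes, with a list median of -0.10 against -0.08 over all genes. These were NTF3 and SHC3, a neuronal Trk adaptor gene, which rose by 0.79 (adjusted p = 0.00127). In Hs-578T ERK5-ko minus MEK5DD, 10 were called higher and 2 lower, beside 15.3% and 3.96% of all genes, led by NDN (2.51, adjusted p = 3.53e-08) and MAGEH1 (2.35, adjusted p = 3.86e-08). The list median there was 0.01 against 0.09. SORCS1 was again among the genes called higher.

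In MDA-MB-231, 13 of the 57 were called higher and 4 lower in ERK5-ko minus MEK5DD, beside 17.5% and 6.12% of all genes, with a list median of 0.01 against -0.02. MAGEH1 was called lower, at 3.73 and 4.11 RPKM in ERK5-ko and 11.5 and 11.01 in MEK5DD (-1.41, adjusted p = 9.35e-07), while NDN was listed at 0 in all 6 libraries. PIK3R1, a regulatory subunit gene of the PI3-kinase that Trk receptors engage, and SHC4 were lower by 1.24 and 1.16 (adjusted p = 0.000129 and 9.71e-05). In the contrasts that chose the set, 3 were called higher and 0 lower in ERK5-ko minus parental, beside 2.8% and 1.07% of all genes (list median 0.00 against -0.04). In MEK5DD minus parental, 5 were called higher and 6 lower, beside 7.64% and 6.31% of all genes (list median -0.02 against -0.01). Nothing is read from these counts, since NGFR chose the contrasts. By levels, RTN4R, a p75NTR co-receptor gene, measured 1.46 RPKM in parental and 2.96 in ERK5-ko, and PLAT, the protease tPA, 203 in parental and 79.5 in MEK5DD. Between the parental lines, 18 were called higher and 14 lower in MDA-MB-231, beside 34.1% and 15.4% of all genes (list median 0.13 against 0.19). Those lower include LINGO1, NDN, NTF3, NTF4 and MMP7, which stayed under 0.5 RPKM in every MDA-MB-231 library. They passed the filter through Hs-578T alone, so that a difference between the lines was built in. Besides LINGO1, the p75NTR co-receptor gene RTN4R was called lower, and so was TNFRSF19. TNFRSF19 had 1.70 and 1.66 RPKM against 25.0 and 21.9 in Hs-578T (-3.45, adjusted p = 1.17e-10, limma). FAS was lower by 2.67, NDN had 0 reads in parental MDA-MB-231 against 114 and 89 in parental Hs-578T, and PLAT and TNFRSF10A were higher by 2.42 and 2.11.

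**Figure D5:**
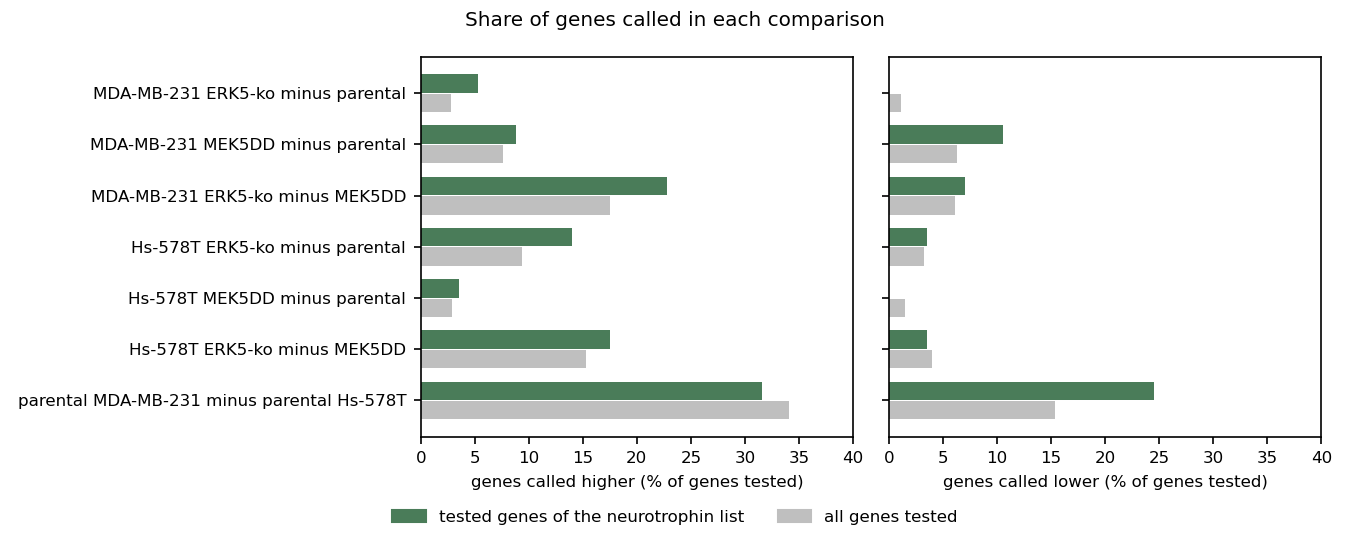
Share of the 57 tested pathway genes (green) and of all 13737 genes tested (grey) that were called higher (left) or lower (right) in each of the 7 comparisons. The green shares include genes whose difference was fixed by the filter. These are SORCS1 in the Hs-578T ERK5-ko comparisons, and LINGO1, NDN, NTF3, NTF4 and MMP7 between the parental lines. In Hs-578T MEK5DD minus parental, 2 of the 57 genes were called higher and 0 lower, beside 2.9% and 1.49% of all genes.

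The line labels and the presence of other NGFR-bearing cell types were checked on marker genes. ESR1 and PGR lay under 0.5 RPKM in all 12 libraries, and ERBB2 RNA measured 27.8 to 56.8 RPKM. Of the neural crest and Schwann cell markers, SOX10 and S100B were at 0 or near it in every library, and the summed level of the 6 markers, of which ERBB3 made up most in MDA-MB-231, was 11.2 RPKM in parental, 18.1 to 23.5 in ERK5-ko and 6.01 to 6.66 in MEK5DD MDA-MB-231. The 6 myoepithelial and basal markers summed to 11.3 to 11.9, 13.0 to 15.6 and 9.14 to 9.60 RPKM in these groups, with KRT5 at 0. The 7 luminal markers summed to 1557 to 1661 RPKM in parental, 2616 to 2627 in ERK5-ko and 1174 to 1222 in MEK5DD MDA-MB-231, and the 4 mesenchymal markers to 1655 to 1803, 1635 to 1687 and 3494 to 3573 RPKM. These sums rest on a few abundant genes. Of the basal list, TP63 had means of 1.83 RPKM in parental, 2.08 in ERK5-ko and 1.06 in MEK5DD MDA-MB-231. In the same order, ACTA2 had 2.92, 5.68 and 4.11 RPKM and OXTR 6.14, 6.25 and 4.04 RPKM, each with the highest mean in ERK5-ko. ERK5-ko and parental libraries overlapped for OXTR (4.97 and 7.54 against 5.89 and 6.39 RPKM) and for TP63 (2.01 and 2.16 against 1.58 and 2.08 RPKM). KRT17 had 0.666, 0.236 and 0.125 RPKM (37, 12 and 7 reads), the order of NGFR, and KRT14 was at the floor. The part of these markers in the NGFR values was not tested. In Hs-578T the luminal markers summed to 195 to 270 RPKM in parental, 588 to 637 in ERK5-ko and 234 to 260 in MEK5DD libraries, beside the rise of BDNF in ERK5-ko, and the myoepithelial markers to 172 to 210, 481 to 516 and 229 to 241 RPKM. Single markers went both ways in ERK5-ko against parental Hs-578T, with means of 476 against 140 RPKM for ACTA2, 571 against 177 for KRT18, 5.54 against 37.2 for KRT14 and 28.8 against 48.8 for KRT8. Their part in the BDNF result was not tested. The 5 leukocyte markers summed to at most 2.79 and the 4 endothelial markers to at most 6.75 RPKM in any library.

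Genes with the most similar pattern were searched among the 12423 tested genes with a mean of at least 1 RPKM, by Pearson's r of log2(RPKM + 0.5) over 12 libraries, which share 2 lines and are not independent points. Closest to NGFR were RSAD2 (r = 0.98), SAA2 (0.98), PI16 (0.98), PLCD1 (0.97) and COBL (0.97). RSAD2, an interferon-induced antiviral gene, had means of 10.97, 4.27 and 0.932 RPKM in parental, ERK5-ko and MEK5DD MDA-MB-231, and COBL, an actin nucleator gene, of 7.94, 3.76 and 0.0676 RPKM. BDNF was closest to CYR61 (0.97), the gene of a matricellular protein with means of 692 RPKM in parental and 970 RPKM in ERK5-ko MDA-MB-231 and of 384 and 544 RPKM in Hs-578T, and to FAM107B (0.96). NTRK2 was closest to RPN2 (0.95) and UBE2L3 (0.95), NTRK3 to HEPH (0.996) and RYK (0.995), and SORT1 to DCAF7 (0.998) and LRPPRC (0.998). Between the 5 genes themselves, r ranged from -0.94 (NTRK3 with SORT1) to 0.75 (BDNF with SORT1).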

How the data were processed

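RNA-seq of 12 libraries was used, grouped by the cell line and label in the sample descriptions. The authors deposited RPKM values per gene, and the submitters' processing notes name bcl2fastq, Trimmomatic 0.32, TopHat2 2.1.1, R 3.3.1 and DESeq2 1.12.4 with GRCh38. The counting tool, its strand setting and the annotation are not given in the sources used here. Whole reads and library totals were recovered from the RPKM steps (32152 of 32152 genes whole within 0.0001 of a read, and 0 of 500 with totals about 1% off). Replicates are consecutive passages of a culture, so p-values measure the spread between such libraries. Over all genes with enough reads, replicates differed by more than counting error. The chi-square per degree of freedom ran from 2.81 in MDA-MB-231 MEK5DD to 30.7 in parental and 41.9 in MEK5DD Hs-578T. Counting intervals leave this spread out. Of the reads, 92.05% to 94.5% fell on listed genes, and no pair of libraries was identical.

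The 5 genes, the pathway and marker lists and the tests were chosen with earlier results of these data known. Protein-coding genes with at least 0.5 RPKM in at least 2 libraries (13737) were fitted as log2(RPKM + 0.5) with limma 3.58.1 in R 4.3.3 (6 group means, 6 residual degrees of freedom, variance trend), with Benjamini-Hochberg adjustment over all genes in each comparison. Since RPKM are not counts, no count model was the main test. Groups with at most 3 reads in each library were treated as at the floor. The pathway genes named in each comparison are up to 3 called in each direction with the largest change, a mean of at least 1 RPKM and separate groups, besides the ligands and the sortilin family. Some genes of the list are not reported here. Tables, motif searches and figures were made in Python 3.11.15 with matplotlib 3.10.9, pandas 2.3.3, numpy 2.4.6 and scipy 1.17.1. Recovery and fit were tested on simulated data. Alternatives changed the pseudocount, filter, scaling, libraries, replicate block, gene types and test.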

Additional observations from a re-analysis of the deposited data

Results flagged for a closer look

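For 8 of the named pathway genes, both engineered libraries of MDA-MB-231 lay on one side of the parental pair and both of Hs-578T on the opposite side. Over the pathway list this held for 20 of 57 tested genes (35.1%) in ERK5-ko and 11 (19.3%) in MEK5DD, beside 32.4% and 21.3% of all genes tested. The difference between the lines was not tested, and the MDA-MB-231 contrasts are those by which the 5 genes were chosen. All values are on the log2(RPKM + 0.5) scale.

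In ERK5-ko minus parental, NTF4 gave 0.21 for MDA-MB-231 (16 reads over 4 libraries) and -0.18 for Hs-578T (66 reads), and SORCS2 0.45 and -1.12 (12427 and 3853 reads). RTN4R gave 0.82 and -0.72 (276 and 316 reads), PLAT -0.19 and 0.62 (30979 and 7347 reads) and FAS 0.40 and -0.77 (579 and 2512 reads), in the same order of lines. In MEK5DD minus parental, NTF3 gave -0.51 and 0.68 (11 and 324 reads), MAGEH1 1.31 and -0.98 (1174 and 267 reads) and SHC4 0.96 and -0.33 (197 and 248 reads).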

How the results depend on the processing

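Depth limited NGFR in Hs-578T (2 to 12 reads) and NTRK3 in MDA-MB-231 (1 to 10 reads). The replicate numbers gave correlations of deviations from 0.107 to 0.541 over 6 pairs of groups of 2, and the samples share only a number. With a replicate block, SORT1 passed in Hs-578T MEK5DD minus parental (-0.29, adjusted p = 0.0231) and ERK5-ko minus MEK5DD (0.26, adjusted p = 0.0209), and no other call of the 5 genes changed. Why values moved was not tested.

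For NGFR, pseudocounts of 0.1 and 1 and limma voom gave -3.82, -3.65 and -3.84 in ERK5-ko minus parental MDA-MB-231 (-3.67 with median-ratio scaling), -7.89, -6.21 and -8.24 in MEK5DD minus parental, 4.06, 2.55 and 4.40 in ERK5-ko minus MEK5DD, and 8.25, 6.31 and 8.72 between parental lines (6.91 with median-ratio scaling). In Hs-578T ERK5-ko minus MEK5DD it turned to -0.0075 without MEK5DD replicate 1 (up to 0.28 without other libraries), and limma voom gave 0.73. With the libraries of 1 line only, BDNF (0.56, adjusted p = 0.0628) and NTRK3 (-0.76, adjusted p = 0.0797) no longer passed in Hs-578T MEK5DD minus parental. Limma voom called BDNF higher in that comparison (0.63, adjusted p = 0.00374). It also called NTRK2 lower (-2.65), a gene that entered the fit through groups in which it was high. NTRK2 passed in MDA-MB-231 ERK5-ko minus MEK5DD with a pseudocount of 0.1 (0.57), no filter (0.23), quantile normalization (0.29), 1 line (0.23) and voom (0.88), and with no filter in Hs-578T ERK5-ko minus parental (0.22). NTRK3 passed in MDA-MB-231 ERK5-ko minus MEK5DD with a pseudocount of 0.1 (0.88), 1 line (0.27) and voom (2.06), and did not in Hs-578T ERK5-ko minus MEK5DD with a pseudocount of 0.1 (0.52), median-ratio scaling (0.37), quantile normalization (0.38) or 1 line (0.46), ranging from 0.30 to 0.63 when 1 library was left out. In Hs-578T ERK5-ko minus parental, leaving out 1 library gave -0.52 to -0.075 for NTRK3 and -0.14 to 0.079 for SORT1, which turned without parental replicate 2. For SORT1 it gave -0.47 to -0.11 in MEK5DD minus parental and 0.080 to 0.44 in ERK5-ko minus MEK5DD.

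By adjusted p alone, pathway genes higher and lower numbered 5 and 3 in MDA-MB-231 ERK5-ko minus parental (6.91% and 10.4% of all genes), 12 and 16 in MEK5DD minus parental (17.5% and 23.8%) and 13 lower in ERK5-ko minus MEK5DD (27.9%). In Hs-578T they numbered 13 and 15 in ERK5-ko minus parental (19.7% each), 9 lower in MEK5DD minus parental (17%) and 15 lower in ERK5-ko minus MEK5DD (19.2%). The 13 higher include SORCS1, whose difference was fixed by the filter. A pseudocount of 0.1 gave 1 lower in MDA-MB-231 ERK5-ko minus parental, 1 higher and 1 lower in Hs-578T MEK5DD minus parental and 4 lower in Hs-578T ERK5-ko minus MEK5DD, and a pseudocount of 1 gave 1 lower in Hs-578T ERK5-ko minus parental and 0 in ERK5-ko minus MEK5DD. For Hs-578T MEK5DD minus parental, 1 line gave 1 higher and voom 1 higher and 2 lower, and voom gave 4 lower in ERK5-ko minus MEK5DD. Leaving out 1 library gave 1 to 3 higher in MDA-MB-231 ERK5-ko minus parental, 0 to 2 lower in Hs-578T ERK5-ko minus parental, 1 to 3 higher and 0 to 1 lower in Hs-578T MEK5DD minus parental, and 1 to 3 lower in ERK5-ko minus MEK5DD.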
